A study of Arabidopsis thaliana with 62 samples.

Results

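Plastid DNA of Arabidopsis thaliana was sequenced from a membrane and a stroma fraction of crosslinked chloroplasts, and the results below concern 8 plastid tRNA genes, of 30 tRNA genes and 113 plastid genes tested. The 8 are trnQ (locus tag ArthCt090), trnG (ArthCt092), trnT (ArthCt098), trnP (ArthCt106), trnS (ArthCt117), trnL (Arthct122), trnR (ArthCt127) and ArthCt100, a tRNA entry that carries no symbol in the gene table. They lie outside the rRNA operon and outside the tRNA genes usually named as targets of sigma factor 2 (trnD, trnE, trnY, trnV and trnM). They were selected on the values reported here, because their coverage in the membrane fraction relative to the stroma fraction differed between the conditions of these same libraries. Their membrane to stroma values are therefore given as a description, and no test is read for them. All 8 were measured in all 61 libraries used, and none was lost to a filter, since no filter on low values was applied.

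The assay, called SOLINA in the labels, was run in 2 parts that were never fitted together. Part 1 held 3 libraries per fraction of sig2-2 and sig6-1 seedlings (mutants of sigma factors), of leaves after 24 h of darkness (Night), of leaves taken 2 h after the lights came on (Day), and of wild-type Col0 seedlings. Seedlings were 4 days old and grew on plates in continuous light, and the leaves came from Col0 plants of 14 days grown on soil. Part 2 held 4 libraries per fraction of 4-day-old seedlings of sig2-2, of chl27 and chlm (lines named for genes of chlorophyll synthesis) and of Col0, with 3 used for chlm stroma. All material was crosslinked with formaldehyde, as isolated chloroplasts in part 1 and as whole seedlings before grinding in part 2, so both preparation and sequencing depth differ between the parts. No label says whether replicates came from separate cultures, so the spread between replicates may be technical. The label field for genotype reads wild type for every library of part 2, and the line was taken from the title there.

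Transfer RNA genes of plastids supply the tRNAs for protein synthesis inside the organelle, and they are among the short, strongly transcribed genes of the plastid genome. Their transcription is known to involve both the bacterial-type plastid-encoded polymerase, which finds its promoters through nuclear-encoded sigma factors, and a phage-type polymerase from the nucleus. The plastid DNA is packed with proteins into nucleoids, which are attached to thylakoid or envelope membranes to a degree that differs with development. The genes with a symbol are named for the amino acid their tRNA carries: glutamine for trnQ, glycine for trnG, threonine for trnT, proline for trnP, serine for trnS, leucine for trnL and arginine for trnR.

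Of the 8 genes, 6 lay in the long single-copy region, trnL in the short single-copy region and trnR in the inverted repeat, where a value stands for both copies. All were 72 to 92 bp long except trnG, whose entry spans 786 bp. In TAIR10 coordinates of the plastid genome, trnQ lay in the 500-bp windows that cover positions 6501 to 7000, trnG in 8501 to 9500, trnT in 31001 to 31500 and trnS in 35001 to 35500. ArthCt100 lay in 46001 to 46500, trnP in 66001 to 67000, trnR in 108001 to 108500 and trnL in 114001 to 114500. The genes were therefore spread along the genome, and no pair of them was adjacent. Each sat in or beside a spacer: trnQ between rps16 and psbK, trnG between the tRNA genes trnS ArthCt091 and trnR ArthCt093, trnT between trnE and psbD. In the same way trnS sat between psbC and psbZ, ArthCt100 between rps4 and trnL ArthCt101, trnP between trnW and psaJ, and trnL between rpl32 and ccsA. Gene trnR sat between rrn4.5S and trnN in the gene table. The rRNA gene rrn5S, listed there only in the other repeat copy, also lies between rrn4.5S and trnR.

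Mean depth per position ranged from 95.4 to 1596 reads among libraries of part 1 and from 298.9 to 4598 among those of part 2, where membrane libraries (298.9 to 3825) were mostly shallower than stroma libraries (1731 to 4598). Every level below is relative coverage, meaning the mean coverage of the gene divided by the mean of its library, so 1 is the library average. A ratio is the log2 of membrane over stroma, with its standard error (SE) from the fit over all libraries of the part. Coverage was more uneven in the membrane than in the stroma libraries of part 1 seedlings. The median window reached 0.697 to 0.862 of the library mean in their 9 membrane libraries, against 0.858 to 0.98 in their 9 stroma libraries. In part 2 it was 0.954 to 1.03 in membrane and 0.953 to 1.04 in stroma. How far this unevenness enters the ratios of single genes was not tested. In part 2, replicate 2 stood apart: in all 8 groups it was the library whose rRNA operon was covered most deeply, up to 2.42 times its single-copy coverage in sig2-2 stroma.

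The first comparison asks where in the genome the 2 fractions of wild-type seedlings differ. In Col0 seedlings of part 1, all 8 genes had more relative coverage in the membrane than in the stroma fraction, by log2 ratios of 0.51 for trnT to 1.36 for trnR. Their median was 0.75, while the median of all 113 genes was -0.27. Gene trnR had 4.19, 3.85 and 4.54 in Col0 membrane libraries, against 1.60, 1.87 and 1.43 in Col0 stroma libraries, a ratio of 1.36 (SE 0.23). The lowest membrane library thus held more than the highest stroma library. Gene trnQ had 3.59, 3.06 and 2.96 in Col0 membrane libraries, against 1.54, 1.75 and 1.82 in Col0 stroma libraries, a ratio of 0.91 (SE 0.18). Gene trnP had 3.01, 2.99 and 2.58 in Col0 membrane libraries, against 1.54, 1.49 and 1.54 in Col0 stroma libraries, a ratio of 0.90 (SE 0.15). Both genes were well above the library average in either fraction, and their fractions did not overlap.

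The leucine gene trnL had 2.37, 2.42 and 2.26 in Col0 membrane libraries, against 1.13, 1.33 and 1.52 in Col0 stroma libraries, a ratio of 0.83 (SE 0.17). ArthCt100 had 2.29, 1.88 and 1.90 in Col0 membrane libraries, against 1.20, 1.30 and 1.31 in Col0 stroma libraries, a ratio of 0.67 (SE 0.17). In both genes every membrane library was above every stroma library. The serine gene trnS had 2.05, 1.84 and 1.69 in Col0 membrane libraries, against 1.28, 1.28 and 1.30 in Col0 stroma libraries, a ratio of 0.52 (SE 0.10). Gene trnT had 2.44, 1.97 and 1.90 in Col0 membrane libraries, against 1.37, 1.39 and 1.65 in Col0 stroma libraries, a ratio of 0.51 (SE 0.22). Replicate 1 was the highest Col0 membrane library for trnQ, trnG, trnT, ArthCt100, trnP and trnS alike. The glycine gene trnG had 1.18, 1.15 and 1.10 in Col0 membrane libraries, against 0.790, 0.738 and 0.771 in Col0 stroma libraries, a ratio of 0.58 (SE 0.11), and it was the only one of the 8 whose stroma level lay below the library average.

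All 8 genes passed an adjusted p of 0.05 as higher in membrane in this condition by limma with Benjamini-Hochberg adjustment, and among all genes 23% did. In all 8 the fractions did not overlap with membrane higher, as in 24.8% of all genes. The choice of the 8 used these values, so nothing is read from either count. In order of their ratios the 8 were trnR, trnQ, trnP, trnL, ArthCt100, trnG, trnS and trnT. The distance from trnR to trnQ was larger than the SE of either ratio, and every later pair of neighbours in this order differed by less than the SE of either.

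**Figure D1:**
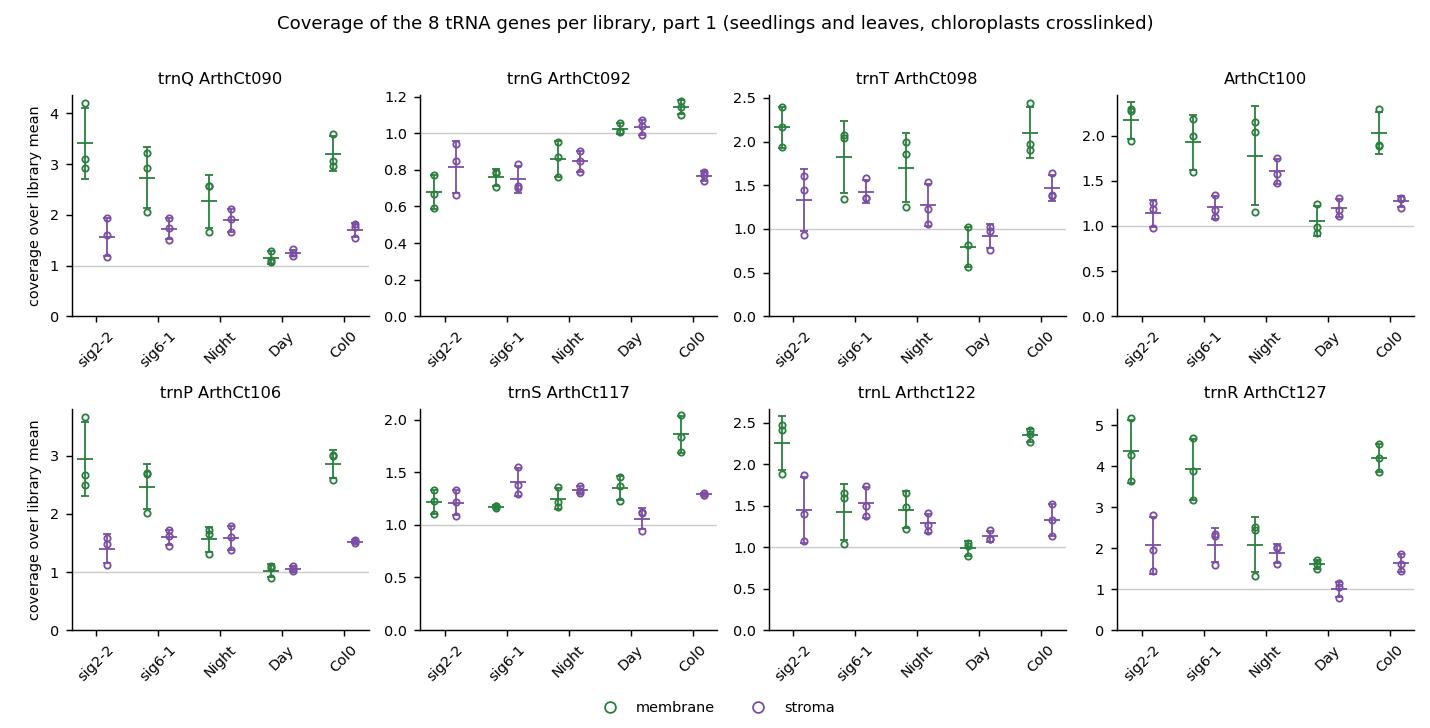
Relative coverage (vertical axis, library mean = 1) of each tRNA gene in part 1, for membrane libraries (green, left) and stroma libraries (purple, right) of each condition; circles are libraries, dashes and bars the mean and SD of 3. In Col0 all 8 genes have separate fractions, in Night none does, and trnG and trnS are near or below their stroma level in the membrane of sig2-2 and sig6-1.

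In Col0 seedlings of part 2, the 8 genes were again all above 0, by 0.15 for trnG to 0.64 for trnQ, with a median of 0.44 against -0.077 over all genes. Gene trnQ had 1.47, 1.47, 1.39 and 1.29 in Col0 membrane libraries, against 0.958, 1.06, 0.840 and 0.762 in Col0 stroma libraries. Gene trnR had 1.55, 1.95, 1.56 and 1.20 in Col0 membrane libraries, against 1.07, 1.17, 0.962 and 0.874 in Col0 stroma libraries. Both membrane levels lay below those of the same gene in part 1, and in both genes the fractions did not overlap. ArthCt100 had 1.51, 1.41, 1.45 and 1.56 in Col0 membrane libraries, against 1.09, 1.10, 0.936 and 1.04 in Col0 stroma libraries, a ratio of 0.51 (SE 0.088). It was the gene with the highest membrane level after trnR. The glycine gene trnG had 1.03, 0.922, 1.02 and 1.03 in Col0 membrane libraries, against 0.894, 0.922, 0.897 and 0.882 in Col0 stroma libraries, a ratio of 0.15 (SE 0.079), and its lowest membrane and highest stroma library, replicate 2 in both, were almost equal. Of the 8 genes, 5 passed the threshold as higher in membrane (trnQ, trnT, ArthCt100, trnP and trnL), against 10.6% of all genes, and 6 did not overlap, against 14.2%.

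In part 2 same-numbered membrane and stroma libraries of Col0, chl27 and chlm deviated together. With the replicate number as a block, all 8 genes passed in Col0 seedlings of part 2, against 23% of all genes as higher in membrane. Without one library of the 8, the count was 3 to 5, and it was 3 without Col0 membrane replicates 1, 2 or 3 or without Col0 stroma replicates 3 or 4. The chosen genes fix these counts as well, and they are given as a description.

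Coverage along the chromosome showed how local the excess was. In Col0 membrane of part 1, the highest smoothed coverage within 300 bp of the gene centre lay inside the gene for all 7 short genes, and in Col0 stroma it did for 4 (trnQ, trnT, ArthCt100 and trnL). The entry of trnG is longer than the stretch searched and is left out of both counts. Relative to flanks 500 to 1000 bp from the centre, gene coverage of trnP was 6.38-fold in Col0 membrane and 2.80-fold in Col0 stroma. For trnL it was 5.56-fold in Col0 membrane and 2.35-fold in Col0 stroma, and for trnQ 4.89-fold in Col0 membrane and 2.35-fold in Col0 stroma. Gene coverage was thus above that of the flanks in either fraction, and by more in the membrane, although the stroma maximum beside trnP lay 224 bp outside the gene. For trnT the peak was 2.76-fold in Col0 membrane and 2.59-fold in Col0 stroma, close to equal, and its flank includes part of trnE, where the Col0 membrane line has a second peak.

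**Figure D2:**
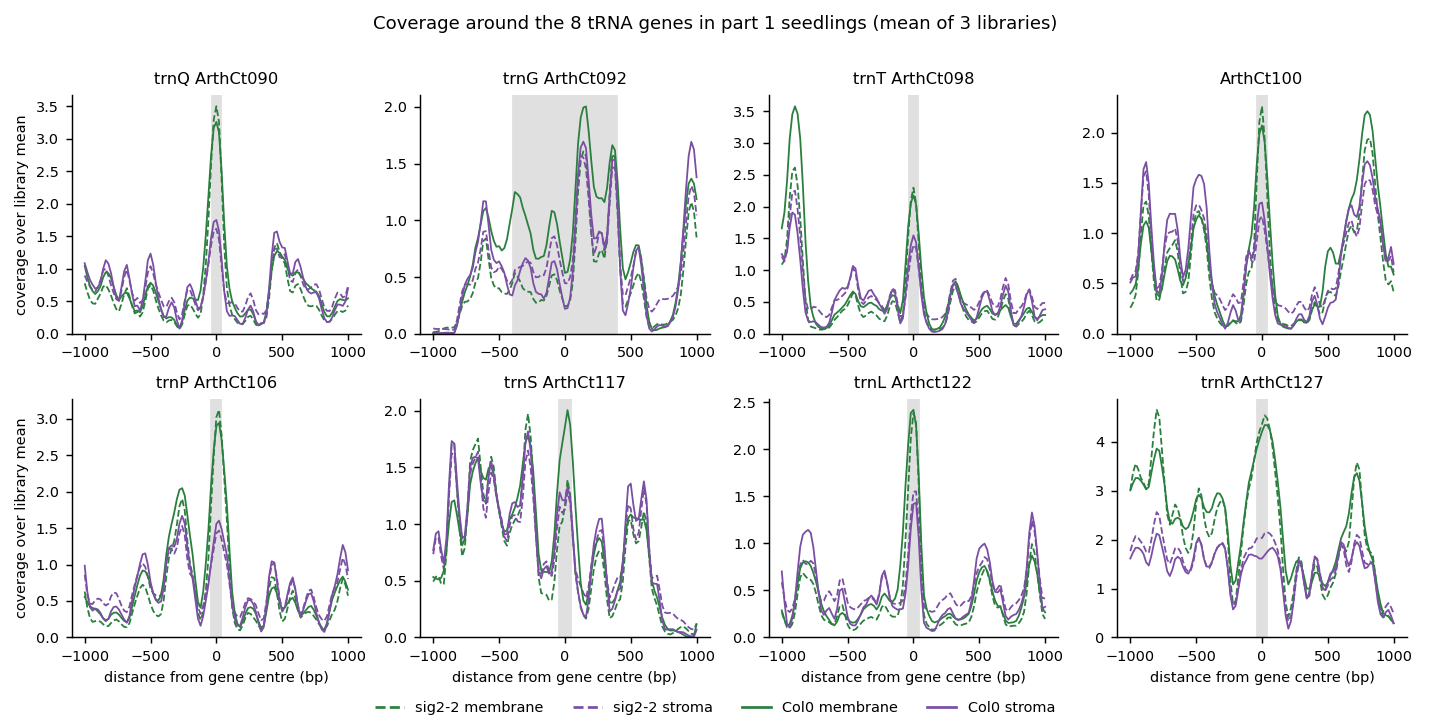
Relative coverage (vertical axis, library mean = 1, smoothed over 51 bases, mean of 3 libraries) against distance from the gene centre in bp, in part 1 seedlings of sig2-2 (dashed) and Col0 (solid), membrane in green and stroma in purple, with the gene shaded. Over every gene the Col0 membrane line is above both stroma lines, and over trnG and trnS the sig2-2 membrane line lies near the stroma lines while over the other 6 genes it lies near the Col0 membrane line.

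Expressed as the log2 ratio over the gene minus that over its flanks, all 8 genes were above 0 in Col0 seedlings of part 1, with a median of 0.70. Over all 113 genes the same measure was above 0 in 46, with a median of -0.045. The flanks of a long gene lie partly or wholly inside it, so this is not a background of like-sized genes. In the 15 other tRNA genes outside the rRNA operon and the sigma factor 2 list it was above 0 in 10, with a median of 0.23. Those 15 are what was left after the 8 had been chosen. Among the 8, the largest values were those of trnL at 1.24 and trnP at 1.19, and the smallest was that of trnT at 0.088. In Col0 seedlings of part 2 all 8 were above 0 again, from 0.052 for trnS to 0.76 for trnQ, with a median of 0.37. There 54 of 113 genes were above 0, and 11 of the 15 other tRNA genes, with a median of 0.18 over the 15. Single bases with the highest ratio say little here, because in 19 of 72 gene and condition profiles that base lay where the stroma coverage was under 0.1 of the library mean.

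The genes on either side were not members of the choice and were tested with all others. Of the 9 protein-coding neighbours, all 9 were below 0 in Col0 seedlings of part 1, at a median of -0.34, and 6 of the 9 were lower in membrane past the threshold by limma, beside 49.6% of all genes. These signs and calls depend on the scaling. With the median window psbK, psbD, psbC and psbZ were above 0, the median of the 9 was -0.046 and 1 was called lower, beside 13.3% of all genes, and with the single-copy mean psbD, psbC and psbZ were above 0, the median was -0.15 and 1 was called lower, beside 30.1%. Next to trnQ, whose ratio was 0.91, rps16 (a ribosomal protein) was at -0.34 and psbK (a photosystem II subunit) at -0.22. Next to trnP at 0.90, psaJ (a photosystem I subunit) was at -0.36. Next to trnL at 0.83, rpl32 (a ribosomal protein) was at -0.41 and ccsA (cytochrome c assembly) at -0.40. A difference between genes of the same libraries does not move with the scaling, and trnL minus ccsA, 111 bp away, was 1.23. In Col0 seedlings of part 2, 8 of the 9 were below 0 and none passed. Neighbours that are not protein-coding were all above 0 in Col0 of part 1, as the 8 genes were. Next to trnR these were rrn4.5S at 0.78 and trnN at 0.81. Next to trnT at 0.51, trnE was higher, at 0.96. The others were trnL ArthCt101 at 0.35 next to ArthCt100, and trnW at 0.33 next to trnP. Beside trnG lay trnR ArthCt093 at 0.16 and trnS ArthCt091 at 0.14.

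The next question was whether the ratios of leaves differ from those of seedlings and between light and dark. In leaves the excess of the 8 genes in membrane was mostly gone. In Day leaves 6 of 8 genes were below 0 and their median was -0.085, against -0.21 over all genes, or 0.054 and 0.098 when scaled to the median window and the single-copy mean. The proline gene trnP had 1.08, 1.10 and 0.893 in Day membrane libraries, against 1.11, 1.02 and 1.05 in Day stroma libraries, a ratio of -0.055 (SE 0.15). Gene trnQ had 1.11, 1.29 and 1.06 in Day membrane libraries, against 1.32, 1.25 and 1.19 in Day stroma libraries, a ratio of -0.12 (SE 0.18). Both fractions of these genes were close to the library average and overlapped, and with another scaling (to the median window or the single-copy mean) the Day ratios of trnQ, trnG and trnP were above 0.

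The exceptions in Day leaves were trnR and trnS. Gene trnR had 1.71, 1.61 and 1.49 in Day membrane libraries, against 1.14, 1.06 and 0.788 in Day stroma libraries, a ratio of 0.70 (SE 0.23). Gene trnS had 1.23, 1.46 and 1.37 in Day membrane libraries, against 1.12, 1.12 and 0.941 in Day stroma libraries, a ratio of 0.35 (SE 0.10). In both, every membrane library was above every stroma library, as in 13.3% of all genes. They were also the only 2 of the 8 past the threshold in Day leaves, where 13.3% of all genes were higher in membrane, and without Day stroma replicate 3 none of the 8 passed, without Day membrane replicate 1 only 1 did. The leucine gene trnL ran the other way without overlap, with 0.889 to 1.05 in Day membrane and 1.09 to 1.21 in Day stroma, as 52.2% of all genes did.

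The Day leaves thus differed from Col0 seedlings of the same part in all 8 genes in the same direction, with differences of the ratio from -1.04 for trnL to -0.17 for trnS. The median difference was -0.81, against 0.035 over all genes. Of the 8, 5 were past the threshold as lower (trnQ, trnG, ArthCt100, trnP and trnL). They were the only genes of the 113 that were (4.42%), so this share is no separate background, and the 8 were chosen on these values. Scaling to the single-copy mean left trnG alone, and without Col0 membrane replicate 1 trnP and trnL were left. ArthCt100 was lost as well without Day membrane replicate 3, Day stroma replicate 1 or Col0 stroma replicate 1. The difference came mainly with less coverage in membrane, where Day minus Col0 was, in log2, -1.49 for trnP, -1.47 for trnQ, -1.43 for trnT and -1.39 for trnR. The stroma differed less, by -0.53, -0.45, -0.68 and -0.72 for the same genes in that order. The glycine gene was different: its membrane differed by -0.15 and its stroma by 0.43. Age, growth on soil and light regime all differ between these leaves and seedlings and cannot be told apart.

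In Night leaves the fractions overlapped for all 8 genes, while 0% of all genes had membrane higher and 8.85% lower without overlap. None of the 8 passed, as no gene of the 113 (0%) did by limma (7 had an unadjusted p under 0.05). The ratios ran from -0.10 for trnS to 0.41 for trnT, and the median was 0.10, against -0.057 over all genes. Apart from trnG, which had 0.759 to 0.951 in Night membrane and 0.790 to 0.903 in Night stroma, all were above the library average in both Night fractions. Gene trnQ had 2.58, 2.56 and 1.66 in Night membrane libraries, against 2.11, 1.91 and 1.65 in Night stroma libraries. ArthCt100 had 2.15, 2.04 and 1.15 in Night membrane libraries, against 1.75, 1.58 and 1.48 in Night stroma libraries. Replicate 3 was the lowest Night membrane library for both genes, and for trnT, trnP, trnL and trnR as well. In Night leaves trnQ was thus above the Day level in either fraction, by 0.95 in membrane and 0.59 in stroma, on the log2 scale.

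Between Night and Day leaves, only trnS among the 8 passed the threshold for a difference of the ratio, at -0.45 (SE 0.14), where 7.08% of all genes were lower. Gene trnS had 1.17, 1.36 and 1.21 in Night membrane libraries, against 1.37, 1.32 and 1.31 in Night stroma libraries, so its stroma level was above that of Day leaves. It passed under 7 of 16 other settings, and not with flanks of 200 bp or without Night membrane replicates 1 or 3, any Night stroma library, Day membrane replicates 2 or 3, or Day stroma replicate 3. Gene trnR differed by -0.60 (SE 0.33) in the same direction and did not pass. It had 2.51, 2.43 and 1.31 in Night membrane libraries, against 2.00, 2.03 and 1.61 in Night stroma libraries, with the stroma higher than in Day leaves by 0.92 and the membrane by 0.32. Threonine gene trnT had the largest difference the other way, 0.65 (SE 0.31).

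**Figure D3:**
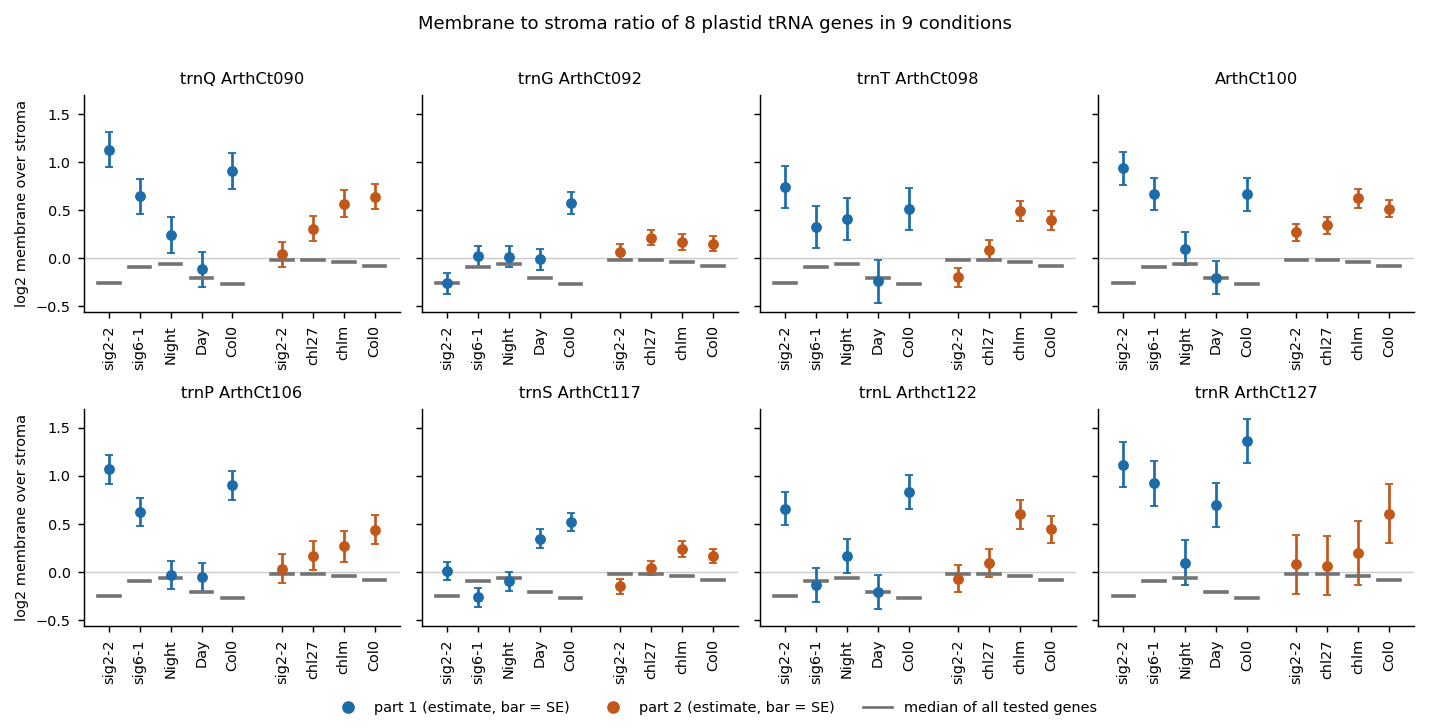
Log2 ratio of membrane over stroma (vertical axis) of each tRNA gene in the 9 conditions, with SE; blue points are part 1, orange points part 2, and grey dashes mark the median of all tested genes in that condition. Every gene is above the grey dash in Col0 of both parts, while in sig2-2 of part 1 trnG lies on it.

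Sigma factor 2 and sigma factor 6 are specificity subunits of the plastid-encoded polymerase, and the mutants ask which ratios depend on them. In sig2-2 seedlings of part 1 the 8 genes split. There 6 had ratios between 0.66 for trnL and 1.13 for trnQ, while trnS was at 0.011 and trnG at -0.26, with trnG at 0.015 and 0.040 on the other side of 0 when scaled to the median window and to the single-copy mean. The SD between the 8 ratios was 0.53 in sig2-2, 0.43 in sig6-1 and 0.28 in Col0 seedlings.

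The glycine gene trnG had 0.670, 0.774 and 0.593 in sig2-2 membrane libraries, against 0.941, 0.848 and 0.663 in sig2-2 stroma libraries. The fractions overlapped, with every membrane library of sig2-2 below the Col0 membrane libraries at 1.10 to 1.18. The ratio in sig2-2 minus that in Col0 was -0.84 (SE 0.16), of which -0.76 lay in the membrane and 0.078 in the stroma. This difference lay between -0.98 and -0.72 under the 16 other settings and was past the threshold in all of them. These settings reuse the libraries on which trnG was chosen, so the count is a description. Within the gene the membrane level was lowest in the 393 bp towards trnS ArthCt091, at 0.390 in sig2-2 membrane (libraries 0.240 to 0.539) and 0.914 in Col0 membrane (0.846 to 0.969). In the 393 bp towards trnR ArthCt093 it was 0.968 in sig2-2 membrane and 1.37 in Col0 membrane. The stroma of the stretch towards trnS held 0.616 in sig2-2 and 0.482 in Col0. Towards trnR ArthCt093 it held 1.02 in sig2-2 and 1.05 in Col0. The sig2-2 membrane was thus below the Col0 membrane in both stretches.

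The serine gene trnS had 1.10, 1.33 and 1.23 in sig2-2 membrane libraries, against 1.09, 1.33 and 1.22 in sig2-2 stroma libraries. The fractions overlapped fully, and the ratio in sig2-2 minus that in Col0 was -0.51 (SE 0.14), with -0.61 in membrane and -0.10 in stroma. It passed under 10 of 16 other settings, not without Col0 membrane replicate 1, Col0 stroma replicates 1 or 2, sig2-2 membrane replicate 1 or sig2-2 stroma replicate 2, nor with scaling to the single-copy mean. These 2 of the 8 were past the threshold as lower, against 4.42% of all genes.

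The other 6 genes showed differences from Col0 of -0.25 for trnR to 0.27 for ArthCt100, each smaller than its SE or close to it. Their sign depended on the setting. Under the 16 other settings they lay between -0.28 and 0.39 for trnQ, -0.35 and 0.39 for trnT, and -0.32 and 0.39 for ArthCt100. For trnP the range was -0.22 to 0.28, for trnR -0.48 to 0.0033 and for trnL -0.65 to 0.029. Of these 6 only trnL passed in any setting, with 200 bp of flanks added. Gene trnQ had 4.20, 2.91 and 3.10 in sig2-2 membrane libraries, against 1.18, 1.59 and 1.93 in sig2-2 stroma libraries. Gene trnP had 3.67, 2.66 and 2.51 in sig2-2 membrane libraries, against 1.12, 1.49 and 1.59 in sig2-2 stroma libraries. In both genes the fractions did not overlap, as in 12.4% of all genes, and replicate 1 was at once the highest membrane and the lowest stroma library, and the same held for trnT, ArthCt100, trnL and trnR. Within sig2-2, 6 of the 8 passed as higher in membrane, against 15.9% of all genes, and trnG passed as lower, against 55.8%, although its fractions overlapped. When 200 bp on each side were added to the genes, the median ratio of the 8 in sig2-2 was 0.18 and 4 of the 8 passed. The share of all genes that passed with these flanks is not reported here, so nothing is read from that count.

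In sig6-1 seedlings, trnS, trnG and trnL stood apart from the rest. Gene trnS had 1.18, 1.18 and 1.16 in sig6-1 membrane libraries, against 1.29, 1.38 and 1.55 in sig6-1 stroma libraries, so each membrane library was below each stroma library, as in 23.9% of all genes. The trnS ratio in sig6-1 minus that in Col0 was -0.78 (SE 0.14), with -0.66 in membrane and 0.12 in stroma. It lay between -0.95 and -0.50 under the 16 other settings, past the threshold in all. As these reuse the libraries on which trnS was chosen, the count is a description. Gene trnL had 1.59, 1.04 and 1.65 in sig6-1 membrane libraries, against 1.50, 1.37 and 1.74 in sig6-1 stroma libraries. Its fractions overlapped, and its difference from Col0 was -0.97 (SE 0.25), with -0.75 in membrane and 0.22 in stroma. That one passed under 8 of 16 other settings and was lost without any one of 8 libraries, which were Col0 membrane replicates 1, 2 and 3, Col0 stroma replicates 1 and 2, sig6-1 membrane replicate 2 and sig6-1 stroma replicates 1 and 3. Gene trnG had 0.781, 0.790 and 0.705 in sig6-1 membrane libraries, against 0.713, 0.835 and 0.700 in sig6-1 stroma libraries. Its difference from Col0 was -0.55 (SE 0.16), with -0.59 in membrane, and did not pass in the main fit. The trnG difference passed under 3 of 16 other settings. These were both other scalings and the replicate block, whose numbers do not pair the Col0 libraries of part 1. The 2 that passed in the main fit, trnS and trnL, were also the only genes of the 113 past the threshold as lower (1.77%), so this share is no separate background.

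The other 5 genes were above 0 in sig6-1 seedlings. Gene trnR had 3.89, 3.19 and 4.69 in sig6-1 membrane libraries, against 2.34, 1.59 and 2.30 in sig6-1 stroma libraries, a ratio of 0.92 (SE 0.23). Gene trnQ had 2.92, 2.06 and 3.21 in sig6-1 membrane libraries, against 1.74, 1.51 and 1.94 in sig6-1 stroma libraries, a ratio of 0.64 (SE 0.18). The fractions of both genes did not overlap, as in 13.3% of all genes. ArthCt100 was at 0.67, trnP at 0.62 and trnT at 0.33. Their differences from Col0 ran from -0.44 for trnR to 0.0010 for ArthCt100. Of the 8, 4 passed within sig6-1 as higher in membrane (trnQ, ArthCt100, trnP and trnR), against 7.96% of all genes, and none did without sig6-1 membrane replicate 1, sig6-1 membrane replicate 3 or sig6-1 stroma replicate 2, or with scaling to the single-copy mean. Same-numbered libraries deviated together in sig6-1, and with the replicate block the same 4 passed as higher, beside 8.85% of all genes, and 19 genes passed in all in place of 12.

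Both sigma factor mutants were set against the same Col0 libraries, so their values are given side by side only. For trnG the membrane held 0.679 ± 0.0907 in sig2-2, 0.759 ± 0.0467 in sig6-1 and 1.14 ± 0.0378 in Col0 (mean ± SD, n = 3 each). For trnS it held 1.22 ± 0.113 in sig2-2, 1.17 ± 0.0131 in sig6-1 and 1.86 ± 0.179 in Col0. For trnL it held 2.26 ± 0.328 in sig2-2, 1.43 ± 0.339 in sig6-1 and 2.35 ± 0.0782 in Col0. The sig2-2 membrane libraries of trnL overlapped with those of Col0, and the sig6-1 ones were all below them. Whether sig2-2 and sig6-1 differ from each other was not tested.

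Part 2 repeated the sig2-2 comparison with whole seedlings. There the ratios of the 8 genes in sig2-2 ran from -0.20 for trnT to 0.27 for ArthCt100, and none passed, as no gene of the 113 (0%) did by limma (14 had an unadjusted p under 0.05). The median was 0.039, and it was -0.016 with scaling to the single-copy mean and 0.21 when 200 bp on each side were added to the genes. All 8 ratios were lower than in Col0 seedlings, with differences of -0.088 for trnG to -0.60 for trnQ. Their median was -0.46, against 0.028 over all genes. Under the 20 other settings the trnL difference changed sign, reaching 0.13. Those of trnG, trnS and ArthCt100 came as near 0 as -0.010, -0.041 and -0.077. Gene trnT was the only one of the 113 genes past the threshold (0.885%). It had 1.04, 0.844, 0.967 and 1.19 in sig2-2 membrane libraries, against 1.14, 1.17, 1.09 and 1.20 in sig2-2 stroma libraries, and 1.14, 1.21, 1.10 and 1.26 in Col0 membrane libraries, against 0.848, 1.11, 0.855 and 0.795 in Col0 stroma libraries. Its difference was -0.59 (SE 0.14), it passed under 12 of 20 other settings (not without Col0 membrane replicate 4, Col0 stroma replicates 1, 3 or 4, sig2-2 membrane replicates 2 or 3, or sig2-2 stroma replicate 1), and it was -0.041 when 200 bp on each side were added to the gene. The trnR difference was -0.53, and -0.25 without sig2-2 stroma replicate 2. Without sig2-2 stroma replicate 4, 4 of the 8 passed as a difference from Col0. Leaving out 1 library at a time, 0 to 11 of the 113 genes passed for this difference.

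In that part the difference came with more coverage in stroma. For trnQ the stroma held 1.35, 1.48, 1.25 and 1.09 in sig2-2 and 0.958, 1.06, 0.840 and 0.762 in Col0, while the membrane held 1.40, 1.44, 1.20 and 1.26 in sig2-2 and 1.47, 1.47, 1.39 and 1.29 in Col0. The sig2-2 stroma libraries were all above the Col0 ones, and the membrane libraries overlapped. The rRNA operon moved with this, at 0.819 to 2.42 of the single-copy coverage in sig2-2 stroma and 0.624 to 0.937 in Col0 stroma, and its part in the result was not tested. Over the 8 genes the stroma was higher in sig2-2 by 0.069 for trnG to 0.51 for trnQ, and the membrane differed by -0.23 for trnT to 0.032 for trnP. In part 1 the stroma differences of the 8 genes between sig2-2 and Col0 had run from -0.18 to 0.29. For trnG the part 2 membrane was at 0.988 ± 0.0628 in sig2-2 and 1.00 ± 0.0523 in Col0 (mean ± SD, n = 4 each), so the low membrane level of part 1 did not recur there.

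**Figure D4:**
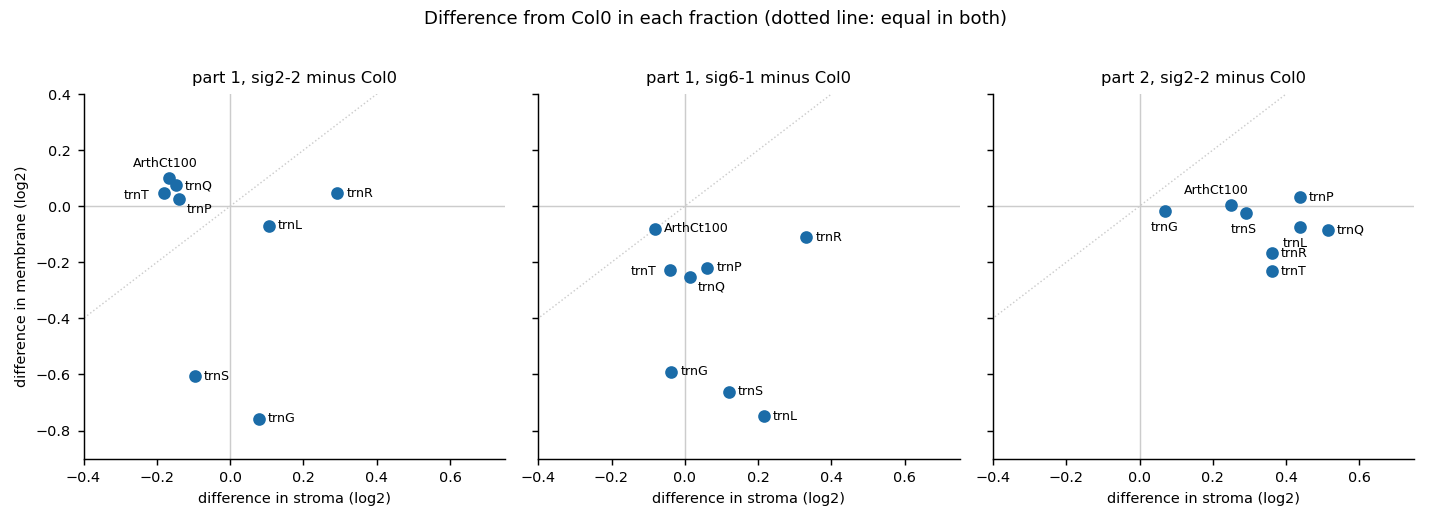
Difference from Col0 in membrane (vertical axis) against the difference in stroma (horizontal axis), both in log2 of relative coverage, for sig2-2 and sig6-1 of part 1 and sig2-2 of part 2; each point is 1 of the 8 tRNA genes. In part 1 trnG and trnS lie far below 0 in membrane in both mutants, and in sig6-1 trnL lies lowest, at -0.75. In part 2 all 8 genes lie to the right of 0, in stroma.

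The lines chl27 and chlm ask whether mutants named for chlorophyll synthesis genes share these ratios. In chl27 all 8 genes were above 0, from 0.046 for trnS to 0.34 for ArthCt100, with a median of 0.13, or 0.30 with 200 bp added on each side. Gene trnQ had 1.29, 1.35, 1.27 and 1.07 in chl27 membrane libraries, against 0.990, 1.32, 0.896 and 0.867 in chl27 stroma libraries. ArthCt100 had 1.43, 1.33, 1.43 and 1.37 in chl27 membrane libraries, against 1.13, 1.29, 1.03 and 0.961 in chl27 stroma libraries. Stroma replicate 2 was the highest of its group in both genes. None of the 8 and no gene of the 113 (0%) passed by limma, where 16 had an unadjusted p under 0.05. With the replicate block 3 of the 8 passed as higher (trnQ, trnG and ArthCt100), as 3.54% of all genes did. Without chl27 stroma replicate 2 alone 1 of the 8 passed. Leaving out 1 library at a time, 0 to 1 of the 113 genes passed in chl27.

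In chlm all 8 genes were above 0, with a median of 0.38 beside 0.44 in Col0. ArthCt100 had 1.47, 1.52, 1.58 and 1.48 in chlm membrane libraries, against 1.14, 0.974 and 0.863 in chlm stroma libraries, a ratio of 0.62 (SE 0.10). Gene trnL had 1.47, 1.49, 1.33 and 1.17 in chlm membrane libraries, against 1.09, 0.978 and 0.677 in chlm stroma libraries, a ratio of 0.60 (SE 0.15). Neither overlapped between fractions, as in 7.08% of all genes, and chlm stroma replicate 4 was the lowest in both. Gene trnQ followed at 0.57 and trnT at 0.49. These 4 were past the threshold, against 5.31% of all genes, with 2 left without chlm stroma replicate 4 or with scaling to the single-copy mean. Gene trnR, at 0.20 (SE 0.33), had 1.33, 2.01, 1.18 and 0.945 in chlm membrane libraries, against 1.49, 0.994 and 1.00 in chlm stroma libraries. The SE of trnR was more than that of any other of the 8. It comes from the fit over all groups of part 2, so it is not the spread of the chlm libraries alone.

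Against Col0, the differences of the 8 ratios ran from -0.54 for trnR to 0.059 for trnG in chl27, and from -0.41 for trnR to 0.16 for trnL in chlm. None passed in either line, as no gene of the 113 (0%) did by limma. At an unadjusted p under 0.05 there were 5 genes of the 113 for chl27 and 0 for chlm. The trnR values rested on replicate 2. Without chl27 stroma replicate 2 its ratio in chl27 was 0.40 and the difference from Col0 -0.21, and without chl27 membrane replicate 2 they were -0.11 and -0.72. Without chlm stroma replicate 2 its ratio in chlm was 0.40 and the difference -0.21, and without chlm membrane replicate 2 they were -0.0021 and -0.61. The SE of the differences was 0.11 for trnG to 0.43 for trnR in chl27.

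**Figure D5:**
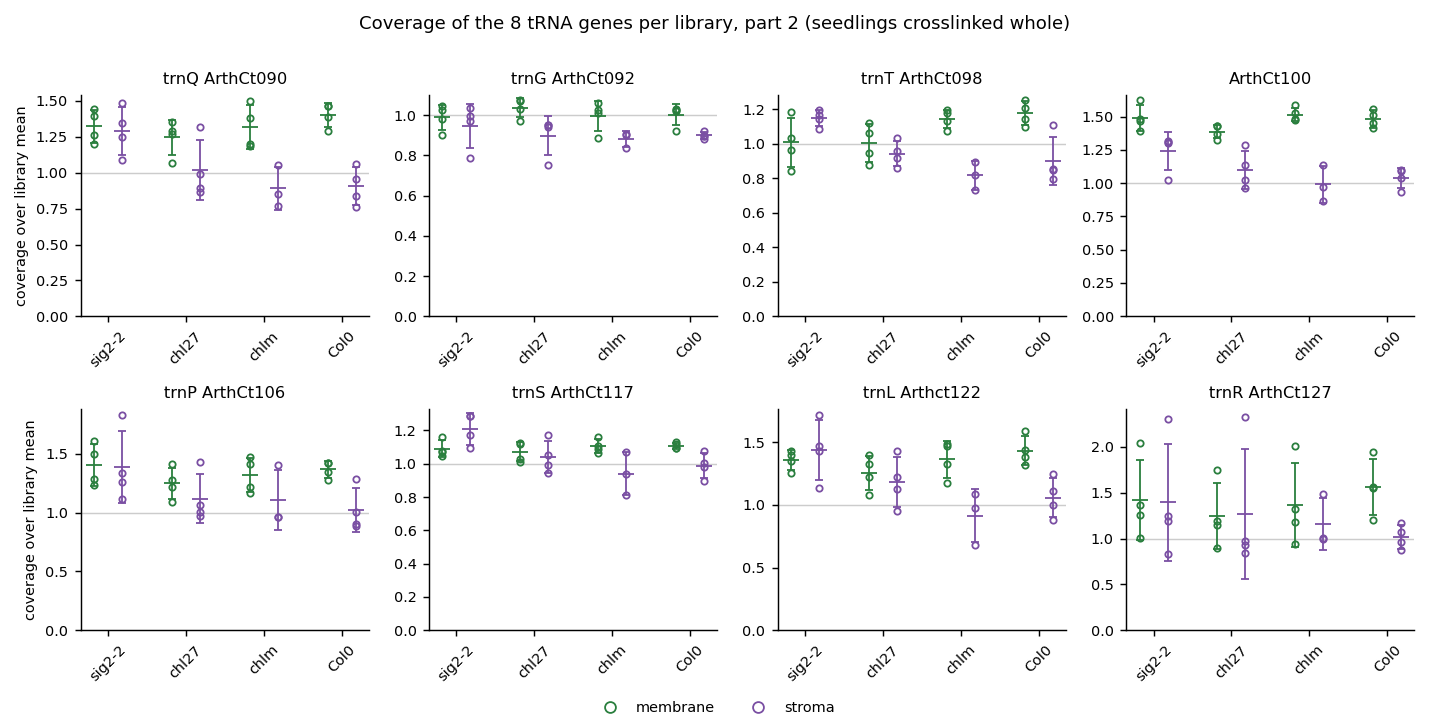
Relative coverage (vertical axis, library mean = 1) of each tRNA gene in part 2, for membrane libraries (green, left) and stroma libraries (purple, right) of each line; circles are libraries, dashes and bars the mean and SD of 4 (3 for chlm stroma). The stroma points of sig2-2 lie above those of Col0 for trnQ, and replicate 2 of trnR is the highest library of every group.

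The arginine gene trnR carried the highest membrane level of the 8 in every group of part 1 but Night. It lies 600 bp from rrn4.5S, the nearest entry of the gene table on that side. The rRNA operon ends between rrn4.5S and trnR with rrn5S, which that table lists only in the other repeat copy. The ratios of trnR ran beside those of rrn23S, the large rRNA gene. For trnR they were 1.12 in sig2-2, 0.92 in sig6-1, 0.10 in Night, 0.70 in Day and 1.36 in Col0 of part 1. For rrn23S they were 0.90 in sig2-2, 0.58 in sig6-1, 0.19 in Night, 1.13 in Day and 1.01 in Col0. In part 2 trnR was at 0.081 in sig2-2, 0.065 in chl27, 0.20 in chlm and 0.61 in Col0, and rrn23S at -0.025 in sig2-2, 0.047 in chl27, 0.22 in chlm and 0.68 in Col0. The gene rrn23S falls outside the rule for named genes and was chosen after its values were seen. Day leaves had rrn23S above trnR, and all 3 seedling lines of part 1 had trnR above rrn23S. Whether the 2 genes vary independently was not tested.

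Likeness was measured as the mean absolute difference of the log2 ratio over the 9 conditions, which share libraries within a part. Among the 8, trnQ and trnP were the closest pair (0.12), followed by trnQ and ArthCt100 (0.13), trnT and trnL (0.16), ArthCt100 and trnP (0.17) and trnG and trnS (0.17). The farthest were trnG and trnR (0.50) and trnQ and trnS (0.50). By their ratios trnQ, ArthCt100 and trnP thus lay close together, and so did trnG and trnS.

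Of genes outside the 8 and more than 2000 bp away, the one nearest to trnG was trnV ArthCt103 (0.076). That trnV is among the genes usually named as targets of sigma factor 2. The one nearest to trnS was psbA, the gene of the photosystem II protein D1 (0.11). The ratios of trnV ArthCt103 were -0.31 in sig2-2, -0.022 in sig6-1 and 0.46 in Col0 seedlings of part 1, beside -0.26, 0.021 and 0.58 for trnG in the same order. Nearest to trnQ (0.21) and trnP (0.17) was trnN Arthct120, nearest to trnT (0.16), ArthCt100 (0.23) and trnL (0.18) was trnG ArthCt116, and nearest to trnR (0.17) was rrn16S, the small rRNA gene.

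The remaining 15 tRNA genes outside the operon and the sigma factor 2 list are what was left after the 8 had been taken out for their values, so they are no comparison group. In Col0 seedlings of part 1, 6 of the 15 were higher in membrane and 1 was lower past the threshold, beside 23% and 49.6% of all genes. Their median was 0.14, against -0.27 over all genes. In sig2-2 of part 1, 4 were higher and 2 lower, beside 15.9% and 55.8% of all genes. In Day leaves 2 were higher, beside 13.3%. In sig6-1 and Night none passed, where 7.96% and 0% of all genes were higher. In part 2, 3 passed in Col0 and 1 in chlm, all higher, beside 10.6% and 5.31% of all genes. None passed in sig2-2 or chl27, where 0% of all genes did. The glycine gene trnG ArthCt116 passed in 4 conditions. Its ratio was 0.77 in sig2-2 (limma adjusted p = 0.00146) and 0.71 in Col0 of part 1 (limma adjusted p = 0.00149). In part 2 it was 0.47 in chlm (limma adjusted p = 0.00825) and 0.49 in Col0 (limma adjusted p = 0.00305). The asparagine gene trnN Arthct120 passed in 3, with 0.79 in sig2-2 (limma adjusted p = 0.00207), 0.49 in Day (limma adjusted p = 0.0456) and 0.81 in Col0 of part 1 (limma adjusted p = 0.00105). Of the 2 glycine tRNA genes, ArthCt116 was thus at 0.77 in sig2-2 of part 1 while ArthCt092 was at -0.26. The ArthCt092 value averages over an entry of 786 bp. There it was -0.66 in the 393 bp towards trnS ArthCt091 and -0.073 in the 393 bp towards trnR ArthCt093. A test of either glycine gene against the other was not run.

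The excess over the flanks differed between the conditions. In part 1 the ratio over the gene was above that over its flanks in 8 of 8 genes in sig2-2, 7 in sig6-1, 4 in Night, 5 in Day and 8 in Col0, with medians of 1.08, 0.50, 0.092, 0.12 and 0.70. In part 2 it was so in 2 genes in sig2-2, 3 in chl27, 7 in chlm and 8 in Col0, with medians of -0.13, -0.030, 0.19 and 0.37. Of all 113 genes, many with flanks inside the gene, 66 were above 0 in sig2-2, 53 in sig6-1, 49 in Night, 62 in Day and 46 in Col0 of part 1. In part 2 these were 36 in sig2-2, 32 in chl27, 41 in chlm and 54 in Col0. In Night, Day, sig2-2 of part 2 and chl27 the share of the 8 was thus near that of all genes, and nothing is read from those counts. The medians over all 113 genes lay between -0.064 and 0.053 in the 9 conditions. Over the 15 other tRNA genes they lay between -0.12 in sig2-2 of part 2 and 0.28 in sig2-2 of part 1. ArthCt100 was the only one of the 8 with a value above 0 in every condition of part 2, from 0.30 in sig2-2 to 0.63 in chlm. In Day leaves it was at -0.12.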

How the data were processed

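Coverage of the plastid genome was measured in membrane and stroma fractions of 62 samples, of which 61 libraries in 18 groups were used. The values deposited by the authors are whole-number coverage at each of 154477 positions in TAIR10 coordinates, in 1 table per part. Per the submitters' processing notes, reads were handled with Trim Galore 0.4.1, Bowtie2 and bedtools 2.25.0. The placement of reads that match either repeat copy is not given in the sources used here, so repeat genes such as trnR carry that uncertainty. The column of chlm stroma replicate 1 held a running position in place of coverage and was not used (1 column). In part 2 the position label was 1 below the row number, and the row number was taken as the position.

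Mean coverage over each gene body was divided by the mean over 309 windows of 500 bp and put on a log2 scale, with no filter and no pseudocount. Gene names and lengths came from a RefSeq table of another assembly name (TAIR10.1), so no gene coordinates are printed. Of 129 plastid entries 113 were tested, counting 15 repeat pairs once. limma 3.58.1 in R 4.3.3 fitted 1 mean per group over all libraries of a part, with Benjamini-Hochberg adjustment over the 113 genes and a threshold of 0.05, two-sided. The script was tested on simulated data. Values were prepared with Python 3.11.15, numpy 2.4.6 and pandas 2.3.3, and drawn with matplotlib 3.10.9. Alternatives were scaling to the median window or to the single-copy mean, adding 200 bp to each side of a gene, a replicate block, and leaving out each library.

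The labels give the same replicate numbers to both fractions, and a number was taken to pair libraries where the deviations from the group means correlated above 0.1 in every pair. That held for sig6-1 (0.318 to 0.857) and Day (0.513 to 0.544) in part 1, and for chl27 (0.287 to 0.928), chlm (0.511 to 0.742) and Col0 (0.332 to 0.844) in part 2. It did not hold for the other conditions.

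The 8 genes, the other gene lists and the comparisons were chosen with earlier results of these data known. The genes named are the 8 and the nearest entry of the gene table on each side. Also named are, for each of the 8, the tested gene over 2000 bp away with the most similar ratios, and other tRNA genes past the threshold in 3 or more conditions. The gene rrn23S was added beside trnR after its values were seen, and rrn5S is named only for its place.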

Additional observations from a re-analysis of the deposited data

Results flagged for a closer look

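In groups of 4 libraries a single value was set against the rest by its gap to the nearest other library, and 4 of 56 groups were flagged, where chance flags about 1 in 20. The trnG level of chl27 stroma replicate 2 was 0.75, with the others at 0.941 to 0.949. The trnG level of Col0 membrane replicate 2 of part 2 was 0.922, with the others at 1.02 to 1.03. ArthCt100 in sig2-2 stroma replicate 4 of part 2 was at 1.03, with the others at 1.30 to 1.32. The trnR level of chl27 stroma replicate 2 was 2.33, with the others at 0.846 to 0.976, and this library also had the highest rRNA operon coverage of its group, 2.16 times its single-copy coverage, whose part in the trnR value was not tested.

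Of 56 differences of the membrane to stroma ratio between conditions, 11 were past the limma threshold, and since the genes were chosen on these values they are listed without further reading. In sig2-2 minus Col0 of part 1 these were trnG at -0.84 and trnS at -0.51. In sig6-1 minus Col0 they were trnS at -0.78 and trnL at -0.97. In Day minus Col0 they were trnQ at -1.02, trnG at -0.59, ArthCt100 at -0.87, trnP at -0.96 and trnL at -1.04. In Night minus Day it was trnS at -0.45, and in sig2-2 minus Col0 of part 2 it was trnT at -0.59.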

How the results depend on the processing

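Counts below are genes of the 113 past the threshold by limma, unless named otherwise. Scaling moved the median ratio of all genes by up to 0.30 in part 1 (sig2-2, single-copy mean) and by no more than 0.071 in part 2. The trnG ratio in sig2-2 of part 1 turned to 0.015 with the median window and 0.040 with the single-copy mean. In Day leaves the median of the 8 genes was 0.054 and 0.098 under these scalings, and in Col0 of part 1 it was 1.04 with the median window. With 200 bp of flanks it was 0.18 in sig2-2 of part 1, 0.21 in sig2-2 of part 2 and 0.30 in chl27.

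Scaling to the median window gave 46 genes in Col0 of part 1, 9 in sig6-1 minus Col0, 16 in Night minus Day, 1 in chl27, 3 in sig2-2 minus Col0 of part 2, and 2 of the other tRNA genes in chlm. Scaling to the single-copy mean gave 1 in sig6-1, 13 in sig2-2 minus Col0 of part 1, 10 in sig6-1 minus Col0, 2 in Day minus Col0, 16 in Night minus Day, 2 in chlm, 8 in Col0 of part 2 and 3 in sig2-2 minus Col0 of part 2, and 0 other tRNA genes in chlm. Flanks gave 19 in sig2-2 minus Col0 of part 1, 13 in sig6-1 minus Col0, 23 in Day minus Col0, 14 in Night minus Day, 6 in chl27, 17 in chlm and 5 in sig2-2 minus Col0 of part 2. Of the other tRNA genes flanks gave 3 in sig6-1, 5 in Day, 3 in chlm and 6 in Col0 of part 2. The main counts are 12 in sig6-1, 82 in Col0 of part 1, 5 in sig2-2 minus Col0 of part 1, 2 in sig6-1 minus Col0, 11 in Day minus Col0, 9 in Night minus Day, 0 in chl27, 9 in chlm, 18 in Col0 of part 2 and 1 in sig2-2 minus Col0 of part 2. The cause of these moves was not tested.

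With the replicate block, paired conditions gave 19 genes in sig6-1, 8 in chl27 and 59 in Col0 of part 2, with 4, 1 and 6 of the other tRNA genes. Where the numbers do not pair the libraries, the block gave 11 in sig2-2 minus Col0 of part 1, 24 in sig6-1 minus Col0, 19 in Day minus Col0, 21 in Night minus Day, 13 in sig2-2 of part 2 (2 other tRNA genes) and 54 in sig2-2 minus Col0 of part 2, 27 of them lower, where 6 of the 8 genes passed as lower in place of trnT alone. There the correlation of same-numbered libraries was -0.445 to 0.699 in sig2-2, -0.217 to 0.864 in Night and -0.443 to -0.108 in Col0 of part 1, and 0.060 to 0.892 in sig2-2 of part 2.

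Leaving out 1 library gave ranges of 62 to 84 genes in sig2-2, 0 to 14 in sig6-1, 0 to 0 in Night, 36 to 47 in Day and 66 to 79 in Col0 of part 1. They were 0 to 0 in sig2-2, 0 to 1 in chl27, 5 to 16 in chlm and 9 to 20 in Col0 of part 2. For the differences they were 3 to 10 (sig2-2), 1 to 4 (sig6-1), 3 to 13 (Day minus Col0) and 0 to 14 (Night minus Day) in part 1, and 0 to 11 (sig2-2), 0 to 0 (chl27) and 0 to 0 (chlm) in part 2. The median of the 8 genes ranged over 0.66 to 0.95 in sig2-2, 0.37 to 0.65 in sig6-1, -0.0090 to 0.34 in Night, -0.13 to -0.0012 in Day and 0.68 to 0.80 in Col0 of part 1. In part 2 it was -0.097 to 0.072 in sig2-2, 0.092 to 0.24 in chl27, 0.29 to 0.50 in chlm and 0.37 to 0.53 in Col0. The other tRNA genes past the threshold numbered 3 to 9 in sig2-2, 0 to 1 in sig6-1, 1 to 2 in Day and 5 to 7 in Col0 of part 1, and 1 to 4 in Col0 of part 2.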
